A study of Mus musculus with 35 samples.

Results

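The extra-embryonic lineage factors described here are 8 mouse transcription factor genes, Cdx2, Eomes, Elf5, Gata3, Tfap2c, Gata4, Gata6 and Sox17, of 21631 protein-coding genes on chromosomes 1 to 19 and X. They were chosen by name, and for each gene the deposited peaks over its body and within 50 kb of either end were collected from 22 libraries, with the question whether days 3 to 9 of reprogramming held regions that embryonic stem cells (ESC) did not. All 8 genes were found in the GRCm38 gene table, and all had peaks of both marks in their windows.

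In the first cell fate decisions of the mouse embryo, trophectoderm and primitive endoderm separate from the pluripotent epiblast, and each is held by a small set of transcription factors. Cdx2, Eomes, Elf5, Gata3 and Tfap2c act in trophoblast, whereas Gata6, Gata4 and Sox17 act in primitive endoderm. Acetylation of histone H3 at lysine 27 (H3K27ac) marks active promoters and enhancers, and KLF4 is a zinc finger factor that binds GC-rich sequences and is one of the factors used to induce pluripotency.

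The fibroblasts (MEF) came from a C57BL/6 x 129 mouse with an OKSM cassette (Pou5f1, Klf4, Sox2 and Myc) in the Col1a1 locus and the M2rtTA transactivator in the Rosa26 locus. MEF were kept in MEF medium without doxycycline. Cells of days 3, 6 and 9 were grown in ESC medium with doxycycline at 1 µg/ml, which switches the cassette on, and ascorbic acid at 50 µg/ml, and carried both transgenes, day 3 as an unsorted bulk and days 6 and 9 after a sort for the surface antigen SSEA1. The ESC were of the V6.5 line on irradiated feeder cells in serum with LIF, and the libraries called ESC in 2i had inhibitors of MEK (1 µM) and GSK3 (3 µM) in addition. For H3K27ac there were 3 libraries each of days 3 and 6 and 2 each of MEF, day 9 and ESC. For KLF4 every stage from day 3 to ESC in 2i had 2 libraries; MEF were not measured, so that a KLF4 region cannot be called a gain from the fibroblast state. Nothing states that libraries of a stage came from separate animals or cultures, so the spread between them may be technical. In these bulk cultures, fewer cells with a mark and less mark per cell cannot be told apart.

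The lists differed in length. H3K27ac lists held 88070 and 88347 peaks in MEF, 41471 to 50836 at day 3, 17493 to 22462 at day 6, 43974 and 45506 at day 9, and 81231 and 81971 in ESC, and KLF4 lists held 21129 to 34640 peaks. Sequencing depth is not known from these files, and a stretch with no listed peak may still carry signal. Both day 9 groups came from batch EC-EA-3702 alone, H3K27ac of MEF and ESC from EC-DG-3458 alone, and days 3 and 6 from 2 batches each, so that for H3K27ac a difference of day 9 from MEF or ESC cannot be told apart from one of batch. For KLF4, the ESC libraries in serum came from EC-EA-2697 and EC-EA-2643, which held no library of days 3 to 9. A KLF4 difference of these days from ESC in serum thus cannot be told apart from one of batch either. Peak names in the day 6 lists of EC-DG-3458 carry each other's number, which does not touch their stage. As a check of the labels, 6 of 6 fibroblast marker genes (Col1a2, Thy1, Twist2, Prrx1, Snai2 and Postn) had an H3K27ac peak within 2.5 kb in both MEF libraries, 5 of 6 in each day 3 library, and 1 of 6 in each day 6 and day 9 library. Of 6 pluripotency markers (Nanog, Esrrb, Zfp42, Tdgf1, Dppa4 and Tfcp2l1), 1 had a peak in MEF, 1 or 2 at days 3 and 6, 5 at day 9 and 6 in ESC. Fibroblast markers with a peak numbered 1 and 3 in the ESC libraries, which had irradiated feeder cells.

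A region is a merged stretch of peaks shared by at least 2 libraries of a stage. It was taken as present at a stage with a peak in at least 2 of its libraries and as absent with none. An H3K27ac region was gained when it was present at day 3, 6 or 9 and absent in MEF and ESC, and a KLF4 region was counted alongside it when it was present at day 3, 6 or 9 and absent in all 4 ESC libraries.

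Elf5, an ETS factor needed for trophoblast stem cells, was the one gene of the 8 with such regions in both marks. Over the whole set, 3 of 72 H3K27ac regions (4.17%) were gained, against 10.2% of all 106528 H3K27ac regions of the genome, with 2 in the Elf5 window and 1 in that of Gata6. Of 28 KLF4 regions, 5 (17.9%) were bound at days 3 to 9 and absent in ESC, against 28.1% of all 37138 KLF4 regions, with 3 at Elf5 and 2 in the Gata4 window. Both shares lay below those of the genome. A window with at least 1 gained H3K27ac region was found for 2 of the 8 genes and for 41.0% of all protein-coding genes, and one with such a KLF4 region for 2 of the 8 and 46.4% of all. Windows with both occurred for 1 of the 8 and 29.6% of all. At least 2 gained H3K27ac regions, as at Elf5, were found in 20.1% of windows, at least 3, as at none of the 8, in 9.68%, and at least 2 such KLF4 regions, as at Gata4 and Elf5, in 19.9%. At least 3 KLF4 regions, as at Elf5, were found in 8.29%, and the 2 and 3 regions of Elf5 together in 5.51%. A window with such regions was thus common among all genes.

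For H3K27ac, regions of ESC alone were more frequent than gained ones. They made up 33 of the 72 H3K27ac regions (45.8%, against 21.8% of all regions), of which 13 lay at Tfap2c, 7 at Gata3, 4 at Eomes, 3 each at Sox17 and Gata4, 2 at Elf5 and 1 at Gata6. Among the 28 KLF4 regions, 7 (25%, against 16.6%) were found in ESC alone, 9 (32.1%, against 43.4%) were present in ESC in serum, and 2 (7.14%, against 11.3%) at every stage. MEF alone held 6 of 72 (against 29.7% of all), and 4 (5.56%, against 9.02%) were present at every stage. In total 57 of the 72 H3K27ac regions (79.2%, against 45.8%) were present in ESC, 24 at day 9, 17 in MEF, 9 at day 3 and 6 at day 6, while MEF and ESC lists were the longest. When the 17493 top peaks of every H3K27ac list were taken, the H3K27ac regions of ESC alone numbered 4. This setting shortened the lists of MEF, day 3, day 9 and ESC together, and the length of the ESC lists alone was not tested. Without ESC replicate 1 or 2 of H3K27ac the 33 became 62 or 57. A stage of 1 library then needs 1 peak, which by itself can raise the count, here and for KLF4. The 7 KLF4 regions became 21 without the ESC library of batch EC-EA-2697, 15 without the 2i library of EC-EA-3702 and 11 without that of EC-DG-3012. They fell to 1 with ESC in serum alone, 2 at a deposited q-value of at most 0.01, 3 with 21129 top peaks per list and 3 with windows of 25 kb, where the KLF4 regions of days 3 to 9 numbered 6, 5, 5 and 4. Which of the KLF4 patterns was the more frequent thus depended on the processing.

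**Figure D1:**
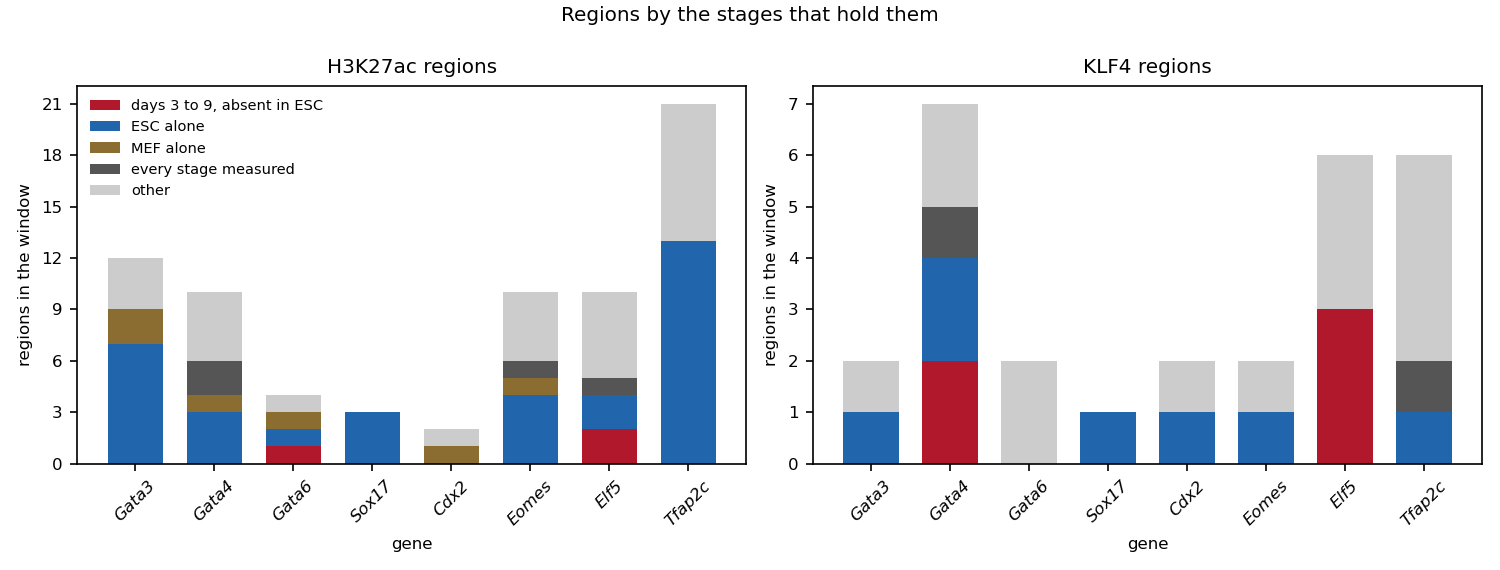
Number of H3K27ac (left) and KLF4 (right) regions in the window of each gene, stacked by the stages that hold them. Regions of days 3 to 9 that are absent in ESC stand at Elf5 (2 and 3), Gata6 (1 and 0) and Gata4 (0 and 2), and Tfap2c has the most regions of ESC alone (13).

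Elf5 lies at chr2:103412098-103450989 on the plus strand, with the catalase gene Cat in the same window. The RefSeq table (GRCm38.p6) gives it 2 promoters, and the downstream one is shown because it is the only promoter of a matched member over which both marks appeared at day 9. The upstream promoter is shown for contrast, since no region overlapped it. Capitals mark every match to the letters GGGNGNGG, a GC-rich form that KLF factors are known to bind, on either strand; matches that overlap are joined.
Elf5 upstream promoter, chr2:103411848-103412147: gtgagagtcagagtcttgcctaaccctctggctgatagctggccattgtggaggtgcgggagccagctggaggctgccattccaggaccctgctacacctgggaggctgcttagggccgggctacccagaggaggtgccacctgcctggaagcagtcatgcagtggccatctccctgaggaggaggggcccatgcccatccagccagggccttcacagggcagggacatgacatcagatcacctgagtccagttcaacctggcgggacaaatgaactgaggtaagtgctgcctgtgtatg
Elf5 downstream promoter, chr2:103423818-103424117: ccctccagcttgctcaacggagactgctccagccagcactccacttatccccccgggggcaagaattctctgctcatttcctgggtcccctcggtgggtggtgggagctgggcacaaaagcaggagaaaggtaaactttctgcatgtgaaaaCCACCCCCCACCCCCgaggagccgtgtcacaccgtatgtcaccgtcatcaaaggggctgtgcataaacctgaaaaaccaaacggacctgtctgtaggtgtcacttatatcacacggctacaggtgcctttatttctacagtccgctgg
The downstream promoter held 3 overlapping matches to GGGNGNGG, of which 2 also match the narrower GGGNGTGG, in 1 run on the minus strand, and the upstream promoter held 0. Of 32619 mouse promoters of 300 bases, 49.8% held the wide and 17.7% the narrow form, so that the match describes this promoter and does not set it apart.

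The upstream gained region of Elf5, at chr2:103404713-103408386, ended 3.71 kb before the gene start. It held H3K27ac peaks in 3 of 3 day 3, 3 of 3 day 6 and 2 of 2 day 9 libraries, and in 0 of 2 MEF and 0 of 2 ESC libraries. The deposited fold enrichment of its best peak, the authors' own value, was 7.65 and 8.44 at day 3 in batch EC-DG-3458 and 7.31 in EC-EA-3702. At day 6 it was 2.36 and 3.6 in EC-DG-3458 and 3.59 in EC-EA-3702, and at day 9 it was 12.4 and 9.86. The day 6 folds were thus the lowest of the 3 days in every library, and both batches of days 3 and 6 had a peak within the region. At day 6 the batches did not share a peak. Those of EC-DG-3458 lay at -6.047 to -5.811 and -6.147 to -5.906 kb from the gene start. Those of EC-EA-3702 lay at -5.668 to -5.176 and -4.739 to -4.421 kb. Gained regions present on all 3 days made up 0.409% of H3K27ac regions of the genome, and those found in all 8 libraries of days 3 to 9, as here, 0.159%. The ESC lists, which had no peak in this region, were longer than every list of days 3 to 9.

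Within the same stretch KLF4 occupied chr2:103406810-103407408 in 2 of 2 libraries of day 3, day 6 and day 9, and in 0 of 4 ESC libraries. The day 6 H3K27ac peaks of EC-DG-3458 did not overlap this KLF4 region. Its fold near Elf5 was 4.65 and 5.59 at day 3, 3.48 and 6.23 at day 6, and 4.12 and 3.98 at day 9, so that the 3 days overlapped. KLF4 regions bound on all 3 days and absent in ESC were 4.06% of the genome's KLF4 regions. Of all gained H3K27ac regions, 30.0% overlapped a KLF4 region bound at days 3 to 9 and absent in ESC, so an overlap of this kind was frequent. KLF4 lists of ESC (21129 to 34640 peaks) and of days 3 to 9 (22525 to 34404 peaks) overlapped in length.

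At the downstream Elf5 promoter both marks were confined to day 9. H3K27ac at chr2:103423832-103424741 had folds of 6.24 and 4.74 in the 2 day 9 libraries, and KLF4 at chr2:103423812-103424076 had folds of 3.49 and 3.32. A further KLF4 region inside the gene, at chr2:103417205-103417627, also appeared in both day 9 libraries alone, with folds of 3.27 and 4.45 and no H3K27ac region over it. H3K27ac regions of day 9 alone were 4.19% of the genome's, and KLF4 regions of day 9 alone 3.60%. These Elf5 regions rest on a single batch. The H3K27ac region was lost with 17493 top peaks per list, KLF4 at the promoter was lost at a deposited q-value of at most 0.01 and with 21129 top peaks per list, and the KLF4 region inside the gene was lost at that q-value. The upstream regions of both marks still met their definitions at that q-value and with those top peaks.

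**Figure D2:**
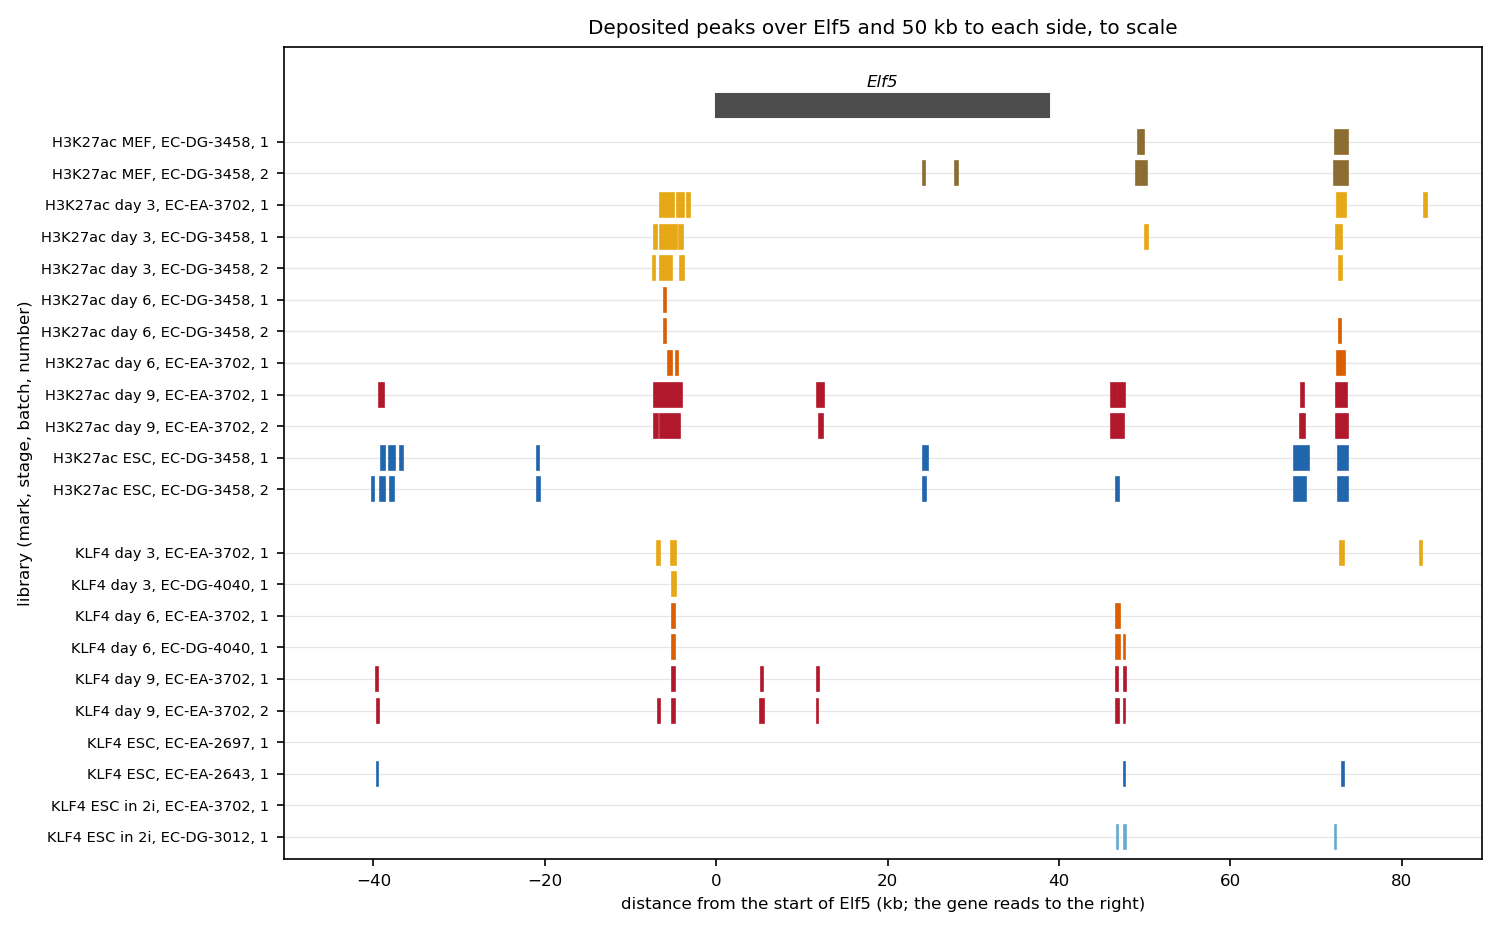
Position of every deposited peak over Elf5 (dark bar) and 50 kb to each side, 1 row per library, with distance from the gene start in kb on the x axis. The stretch just left of the gene holds a peak in all 8 H3K27ac and all 6 KLF4 libraries of days 3 to 9 and is empty in MEF and ESC.

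**Figure D3:**
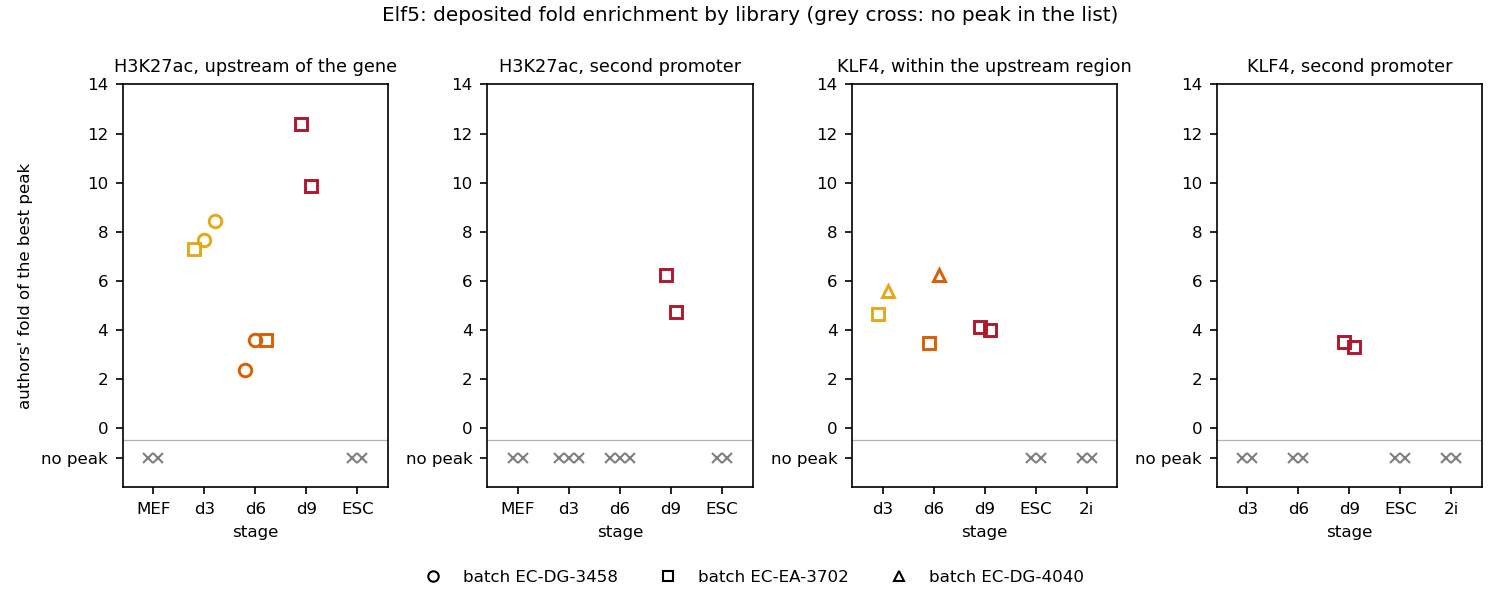
The authors' fold enrichment of the best peak (y axis) in each library by stage (x axis), for 4 Elf5 regions; crosses below the line are libraries with no peak. Upstream H3K27ac folds were 7.31 to 8.44 at day 3, 2.36 to 3.6 at day 6 and 9.86 and 12.4 at day 9.

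The remaining Elf5 regions followed other patterns. Far upstream, H3K27ac at chr2:103373914-103374615 and chr2:103391182-103391513 was found in ESC alone, and inside the gene chr2:103436293-103436846 had peaks in 2 of 2 ESC and 1 of 2 MEF libraries. Other stretches of the Elf5 window were shared: in Cat, chr2:103479530-103481264 was present in 2 of 2 day 9 libraries (2.4 and 2.95) and 2 of 2 ESC libraries (6.04 and 5.1), and chr2:103484226-103485894 was present at every stage. In Cat, KLF4 at chr2:103458724-103459247 was bound in 2 of 2 libraries at days 6 and 9, with folds of 4.69, 3.41, 4.68 and 5.75, and it had a peak of fold 2.61 in 1 of 2 libraries of ESC in 2i, which kept it out of the count. Another just outside the definition, KLF4 at chr2:103372429-103372697, had folds of 4.12 and 4.56 in the day 9 libraries and 2.06 in 1 of 2 ESC libraries in serum. Just inside it, the KLF4 region of the downstream Elf5 promoter had folds of 3.49 and 3.32 and no ESC peak.

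Over the whole Elf5 window, counted as peaks per 10000 peaks of the list, H3K27ac values were 0.341 and 0.566 in MEF, 1.07, 1.38 and 1.21 at day 3, 0.481, 1.14 and 1.34 at day 6, 1.59 and 1.32 at day 9, and 0.854 and 1.11 in ESC. All libraries of days 3 to 9 but 1 of day 6 lay above both MEF libraries, and the days overlapped ESC. The mean of days 3 to 9, 1.19 ± 0.328 (SD, n = 8), exceeded that of MEF, 0.453 ± 0.159 (n = 2), by 0.737 (two-sided exact permutation test, p = 0.0444; 0.166 after Benjamini-Hochberg adjustment over 19282 genes). Under other processing the exact permutation p of this difference from MEF was 0.133 with covered base pairs, 0.311 at a q-value of at most 0.01, 0.311 with 17493 top peaks per list and 0.911 with undivided peaks. With a window of 25 kb the difference from MEF was 0.475 (exact permutation p = 0.0222). Against ESC, 0.981 ± 0.180 (n = 2), the difference was 0.209 (exact permutation p = 0.444), its sign depended on the processing, and it was 0.0824 without ESC replicate 1 and 0.336 without replicate 2. With a window of 25 kb the difference from ESC was 0.508 (exact permutation p = 0.0222, adjusted p = 0.112). Within batch EC-DG-3458 the Elf5 differences were 0.598 from MEF (exact permutation p = 0.267) and 0.0708 from ESC. Both comparisons use the same 8 libraries of days 3 to 9 and are not independent. In the exact permutation test neither comparison of Elf5 passed the adjusted threshold of 0.05.

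KLF4 values for Elf5 were 1.16 and 0.339 at day 3, 0.888 and 1.25 at day 6, 2.5 and 2.69 at day 9, 0 and 0.866 in ESC, and 0 and 0.898 in 2i. Both day 9 libraries stood above all the others, with 6 and 7 peaks in the window. Days 3 to 9 averaged 1.47 ± 0.929 (n = 6) and ESC 0.441 ± 0.509 (n = 4), a difference of 1.03 (exact permutation p = 0.0857, adjusted p = 0.261), and the groups overlapped. Batch EC-EA-3702 holds a single ESC library of KLF4, grown in 2i, so a comparison within it is a value without a test: the Elf5 difference there was 1.81.

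Tfap2c, the AP-2 gamma factor of trophoblast and germ cells, at chr2:172545678-172558622, differed from Elf5 in that ESC held the mark at all its regions. Each of its 21 H3K27ac regions was present in ESC, and 8 were also present at day 9. Of these, 1 had been present at day 6 and 1 in MEF, and none at day 3. The 13 regions of ESC alone placed it among the 1.09% of gene windows with at least as many. In a window of 25 kb the number was 4, and with 17493 top peaks per list it was 1. Without either ESC library of EC-DG-3458 it was 28 (replicate 1 left out) or 24 (replicate 2), since a stage of 1 library then needs 1 peak. H3K27ac at chr2:172545609-172546191, over the lower-numbered end of Tfap2c, was one of those of ESC alone, with folds of 4.29 and 2.85.

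H3K27ac over Tfap2c itself, at chr2:172549431-172552254, was absent in MEF and day 3 and present in 3 of 3 day 6, 2 of 2 day 9 and 2 of 2 ESC libraries. The folds there were 3.14, 3.43 and 2.46 at day 6, 8.14 and 8.67 at day 9, and 11.0 and 6.71 in ESC, so that day 6 lay below both later stages and day 9 within the range of ESC. KLF4 at chr2:172549232-172549726, overlapping its edge, was likewise absent at day 3 and bound in 2 of 2 libraries of days 6 and 9, in 1 of 2 of ESC and in 2 of 2 of ESC in 2i. A KLF4 region 18.5 kb beyond the higher-numbered end of Tfap2c, chr2:172577168-172577742, was bound in all 10 libraries. Its folds were 4.53 and 2.93 at day 3, 4.03 and 8.62 at day 6, 10.8 and 10.8 at day 9, 8.11 and 7.97 in ESC, and 12.2 and 4.85 in 2i. The H3K27ac regions chr2:172575757-172577482 and chr2:172577577-172583031, which both overlap it, were present at day 9 and in ESC. At day 3 each had a peak in 1 library, with folds of 2.37 and 2.77, and of these peaks only the former overlapped the KLF4 region. At day 6 chr2:172575757-172577482 had a peak of fold 3.02 in 1 of 3 libraries, which did not overlap the KLF4 region.

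**Figure D4:**
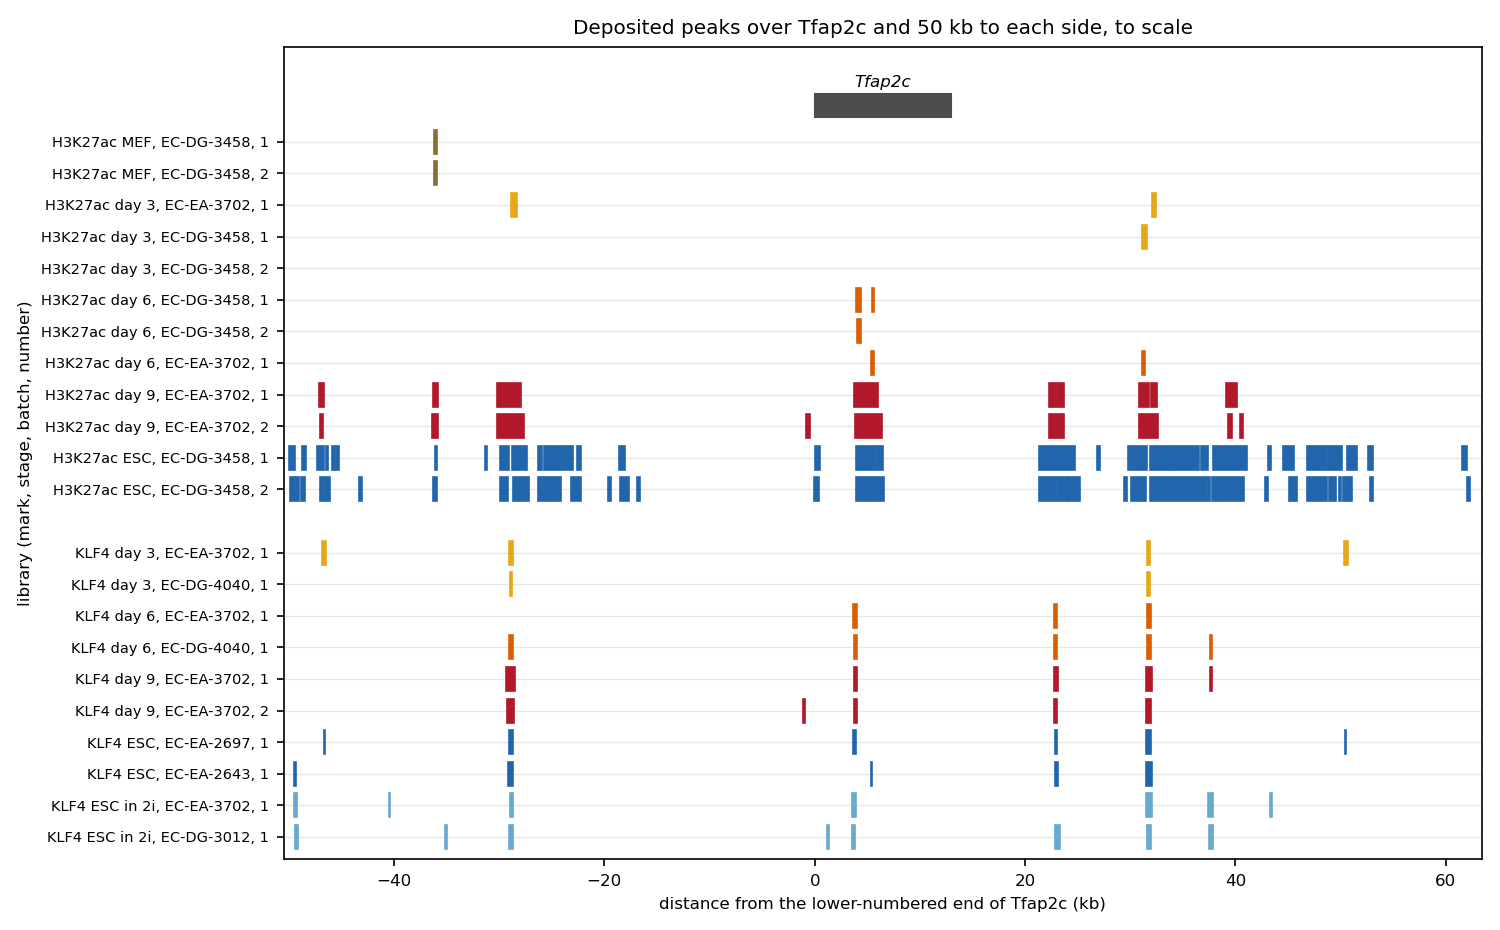
Deposited peaks over Tfap2c (dark bar) and 50 kb to each side, 1 row per library, with distance from the lower-numbered end of the gene in kb on the x axis. H3K27ac peaks number 0 to 2 in each library of MEF, day 3 and day 6, 9 and 11 at day 9, and 34 and 38 in ESC, while KLF4 has 2 to 8 in every library.

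In peaks per 10000, the Tfap2c window had its highest values in ESC, followed by day 9: 0.114 and 0.113 in MEF, 0.428, 0.197 and 0 at day 3, 0.962, 0.572 and 0.890 at day 6, 2.05 and 2.42 at day 9, and 4.15 and 4.68 in ESC. No library of days 3 to 9 reached ESC. The means were 0.939 ± 0.866 (n = 8) and 4.41 ± 0.375 (n = 2), a difference of -3.47 (exact permutation p = 0.0222, the smallest that 45 labelings allow; adjusted p = 0.101), and within batch EC-DG-3458 it was -3.98. With a window of 25 kb the difference at Tfap2c was -1.24. Groups that do not overlap in this direction were found for 17.9% of 19905 genes. KLF4 in the same window ranged from 0.678 to 2.09 at days 3 to 9 and from 1.44 to 2.87 in the 4 ESC libraries (difference -0.841, exact permutation p = 0.0714, adjusted p = 0.232).

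Gata3, a trophectoderm factor that is also used in T cells and other tissues, at chr2:9857078-9887953, carried H3K27ac at its promoter in MEF and mostly elsewhere in ESC. Its promoter region, chr2:9877869-9879724, had folds of 5.86 and 7.43 in the 2 MEF libraries, 2.93 in 1 of 3 day 3 libraries, none at day 6, 2.59 in 1 of 2 day 9 libraries and 2.94 in 1 of 2 ESC libraries. Around the other end of the gene, which on the minus strand is its 3′ end, ESC alone had the adjoining regions chr2:9852789-9856040 and chr2:9856096-9859546, with folds of 16.7 and 14.8 in the former and 19.3 and 18.8 in the latter. These stood at percentiles 92.2 to 95 of the ESC lists. Over 5 further stretches of the gene, ESC alone had the mark, with folds of 2.66 to 7.03. Beside these, chr2:9876339-9877803 was present in MEF (2.61 and 4.29) and ESC (4.72 and 3.53), and chr2:9881022-9881772 in ESC (4.13 and 4.07) and 1 MEF library (3.72). KLF4 near the 3′ end, chr2:9855948-9856229, was bound in 2 of 2 ESC libraries in serum alone, with folds of 3.86 and 3.9. KLF4 near the Gata3 promoter followed another course: chr2:9879411-9879885 was bound in 2 of 2 libraries of day 3, day 6, ESC and 2i, and in 1 of 2 at day 9, with folds between 2.92 and 11.5. KLF4 was therefore detected beside this promoter at days 3 and 6, when a reproducible H3K27ac region was not.

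Window values of Gata3 were 0.454 and 0.792 in MEF, 1.46 and 1.85 in ESC, and 0 in 6 of the 8 libraries between, with 0.241 in 1 day 3 and 0.227 in 1 day 9 library. Days 3 to 9 (0.0586 ± 0.109, n = 8) lay below MEF (0.623 ± 0.239, n = 2; difference -0.565, exact permutation p = 0.0222, adjusted p = 0.119) and below ESC (1.66 ± 0.271, n = 2; difference -1.60, exact permutation p = 0.0222, adjusted p = 0.101), without overlap in either case. Such groups, lower at days 3 to 9, were found for 10.9% of 19282 genes against MEF and for 17.9% of 19905 genes against ESC. With windows of 25 kb and 100 kb the exact permutation p against MEF was 0.0667 and 0.267. Within batch EC-DG-3458 the difference from ESC was -1.59 (exact permutation p = 0.0667, the smallest this split allows).

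Eomes, a T-box factor of trophoblast and of the primitive streak, at chr9:118478186-118486132, showed day 9 regions that ESC shared. H3K27ac at chr9:118487883-118489812, 1.75 kb past the gene end, had folds of 2.2 and 3.47 at day 9 and 4.63 and 8.60 in ESC. Another at chr9:118498073-118498934 had 2.77 and 2.61 at day 9 and 2.13 and 3.48 in ESC. Neither had a peak in MEF, day 3 or day 6. KLF4 at chr9:118497016-118497340 was present in both libraries of day 9, ESC and 2i, with folds of 3.10 and 2.90, 6.93 and 4.36, and 3.31 and 4.77, and absent at days 3 and 6. Over the start of Eomes, chr9:118478292-118479869 had folds of 8.69 and 8.32 in ESC and 2.26 in 1 of 2 day 9 libraries. ESC alone had H3K27ac 1.11 kb before the gene at chr9:118476741-118477072 (3.04 and 3.79) and inside it at chr9:118482004-118482270 (2.96 and 4.64). KLF4 inside Eomes, chr9:118482357-118482606, was found in 1 ESC library (3.29) and both of 2i (4.67 and 2.55).

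Peaks per 10000 in the Eomes window were 0.454 and 0.226 in MEF, 0.214, 0.197 and 0.241 at day 3, 0.962, 1.14 and 0.445 at day 6, 0.910 and 1.10 at day 9, and 1.59 and 1.60 in ESC. ESC stood above every other library (difference of days 3 to 9 from ESC -0.942, exact permutation p = 0.0222, adjusted p = 0.101; -0.957 within batch EC-DG-3458, exact permutation p = 0.133). In covered base pairs per Mb of the list, 1 day 6 library stood at 118, against 101 and 118 in ESC, and the exact permutation p was 0.111, and with 17493 top peaks per list it was 0.0889. For KLF4 the values were 0.291 and 0.339 at day 3, 0 and 0 at day 6, 0.417 and 0.385 at day 9, 0.473 and 1.15 in ESC, and 0.819 and 0.898 in 2i. All 6 libraries of days 3 to 9 lay below the 4 ESC libraries, a difference of -0.598 (exact permutation p = 0.00476, the smallest of 210 labelings; adjusted p = 0.0516), and 7.74% of 19866 genes showed non-overlapping groups in this direction. Against the single 2i library of batch EC-EA-3702 it was -0.546. The adjusted p for Eomes in this exact permutation test was 0.042 with base pairs covered in place of peaks and 0.168 with undivided peaks. It was 0.286 with 21129 top peaks per list and 0.324 with windows of 100 kb.

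Cdx2, the caudal-type homeobox factor of trophectoderm and intestine, at chr5:147300900-147307249, had 2 regions of each mark. H3K27ac at chr5:147299206-147300413, 0.487 kb past its 3′ end, was absent before day 9, with folds of 3.14 and 4.69 at day 9 and 5.03 and 5.20 in ESC. A MEF region 7.73 kb away, chr5:147292008-147293169, with folds of 11.1 and 13.3, was absent at every later stage. KLF4 at chr5:147295704-147295994 had peaks in 2 of 2 day 6 libraries, 1 of 2 day 3 and 1 of 2 ESC libraries. No H3K27ac or KLF4 region covered the Cdx2 promoter of the RefSeq table. KLF4 peaks per 10000 averaged 0.192 ± 0.217 (n = 6) at days 3 to 9 and 0.731 ± 0.481 (n = 4) in ESC (difference -0.539, exact permutation p = 0.0190, adjusted p = 0.108), and the difference from the single 2i library within batch EC-EA-3702 was -0.226. Without the ESC library of batch EC-EA-2643, which holds 5 of the 9 KLF4 peaks of ESC in the Cdx2 window, the difference was -0.302 (exact permutation p = 0.0476, adjusted p = 0.206). The exact permutation p for Cdx2 was 0.224 with windows of 25 kb, 0.205 with 100 kb, 0.305 at a q-value of at most 0.01 and 0.186 with 21129 top peaks per list. H3K27ac values of Cdx2 were 0.114 and 0.113 in MEF, 0 in every library of days 3 and 6, 0.455 and 0.220 at day 9, and 0.244 and 0.369 in ESC. Day 9 thus overlapped ESC, whereas days 3 and 6 held no peak in the Cdx2 window.

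The primitive endoderm factors had few regions of their own. Sox17, an SRY-box factor at chr1:4490928-4497426, had no peak of either mark in its window in any library of MEF or days 3 to 9. In ESC its H3K27ac values were 0.610 and 0.369 peaks per 10000, from 3 regions of which chr1:4491788-4492110 and chr1:4492183-4492619 lay over the gene, with folds of 2.37 to 3.70. KLF4 was listed in 3 of 4 ESC libraries, with a region 42.5 kb away in both libraries of 2i. Days 3 to 9 were thus at 0 throughout. Their difference from ESC was -0.490 for H3K27ac and -0.571 for KLF4, and -0.819 for KLF4 from the single 2i library within batch EC-EA-3702. Sox17 entered these comparisons only through its ESC peaks, so no p-value is given for it.

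Gata6, a zinc finger factor that opens the primitive endoderm programme, carried the remaining gained H3K27ac region. It lay 47.8 kb from the gene, near the edge of the window, and was present in 2 of 2 day 9 libraries, with folds of 2.96 and 3.30. KLF4 at the same place was not particular to reprogramming: 2 of 2 ESC libraries, 1 of 2 day 9 and 0 of 2 of 2i had a peak there. The Gata6 region was lost with a window of 25 kb and with 17493 top peaks per list. Over one end of the gene, H3K27ac had folds of 11.8 and 9.94 in MEF and 4.13 and 2.76 in ESC, with single libraries of day 3 (4.35) and day 9 (3.41) between. A KLF4 region 12.5 kb from Gata6 was bound most strongly at day 9, with folds of 9.20 and 9.79, against 6.80 in 1 of 2 libraries at day 3, 5.82 in 1 at day 6, 2.69 in 1 of ESC and 4.42 in 1 of 2i. It was not counted as absent in ESC, and it had no H3K27ac region over it, though 1 of 2 day 9 libraries (2.43 and 3.47) and 1 of 2 ESC libraries (2.37) had H3K27ac peaks there. Gata6 window values of H3K27ac were 0.568 and 0.453 in MEF, 0 in 5 of the 6 libraries of days 3 and 6 and 0.214 in the other, 0.227 and 0.879 at day 9, and 0.61 and 0.492 in ESC (difference of days 3 to 9 from ESC -0.386, exact permutation p = 0.0889, adjusted p = 0.239).

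Gata4, a zinc finger factor of primitive endoderm and heart, at chr14:63198914-63271712, shares its window with Fdft1 and Neil2, and most of its regions lay over those genes. Both KLF4 regions bound at days 3 to 9 and absent in ESC did so. The one in Fdft1, chr14:63148626-63149150, was 49.8 kb from Gata4 and found at day 3 alone, with folds of 2.54 and 2.66, over H3K27ac present in MEF and at day 3. The one in Neil2, chr14:63191072-63191378, had folds of 4.38 and 4.56 at day 9, 2.86 in 1 day 3 and 2.81 in 1 day 6 library. At a q-value of at most 0.01, with 21129 top peaks per list and with windows of 25 kb, the count of such KLF4 regions in the Gata4 window was 1. Over Gata4 itself, H3K27ac at chr14:63240444-63240922 and chr14:63255783-63256159 was found in ESC alone, with folds of 2.94 to 3.92, and KLF4 at chr14:63245259-63245572 in 1 ESC and 2 libraries of 2i. The regions over the Gata4 gene held no peak at days 3 to 9, but a KLF4 peak of fold 9.32 inside Gata4 was listed in 1 of 2 day 3 libraries, too few to make a region. Over the whole Gata4 window, H3K27ac was at 0.908 and 0.906 in MEF, 1.21 to 2.14 at day 3, 0.572 to 0.962 at day 6, 1.82 and 1.98 at day 9, and 1.46 and 1.85 in ESC, so that days 3 to 9 lay on both sides of ESC (difference -0.263, exact permutation p = 0.6). KLF4 in the Gata4 window ranged from 0.888 to 1.74 at days 3 to 9 and from 1.20 to 2.46 in ESC, and the groups overlapped, as they did for KLF4 at Gata3 and Gata6.

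**Figure D5:**
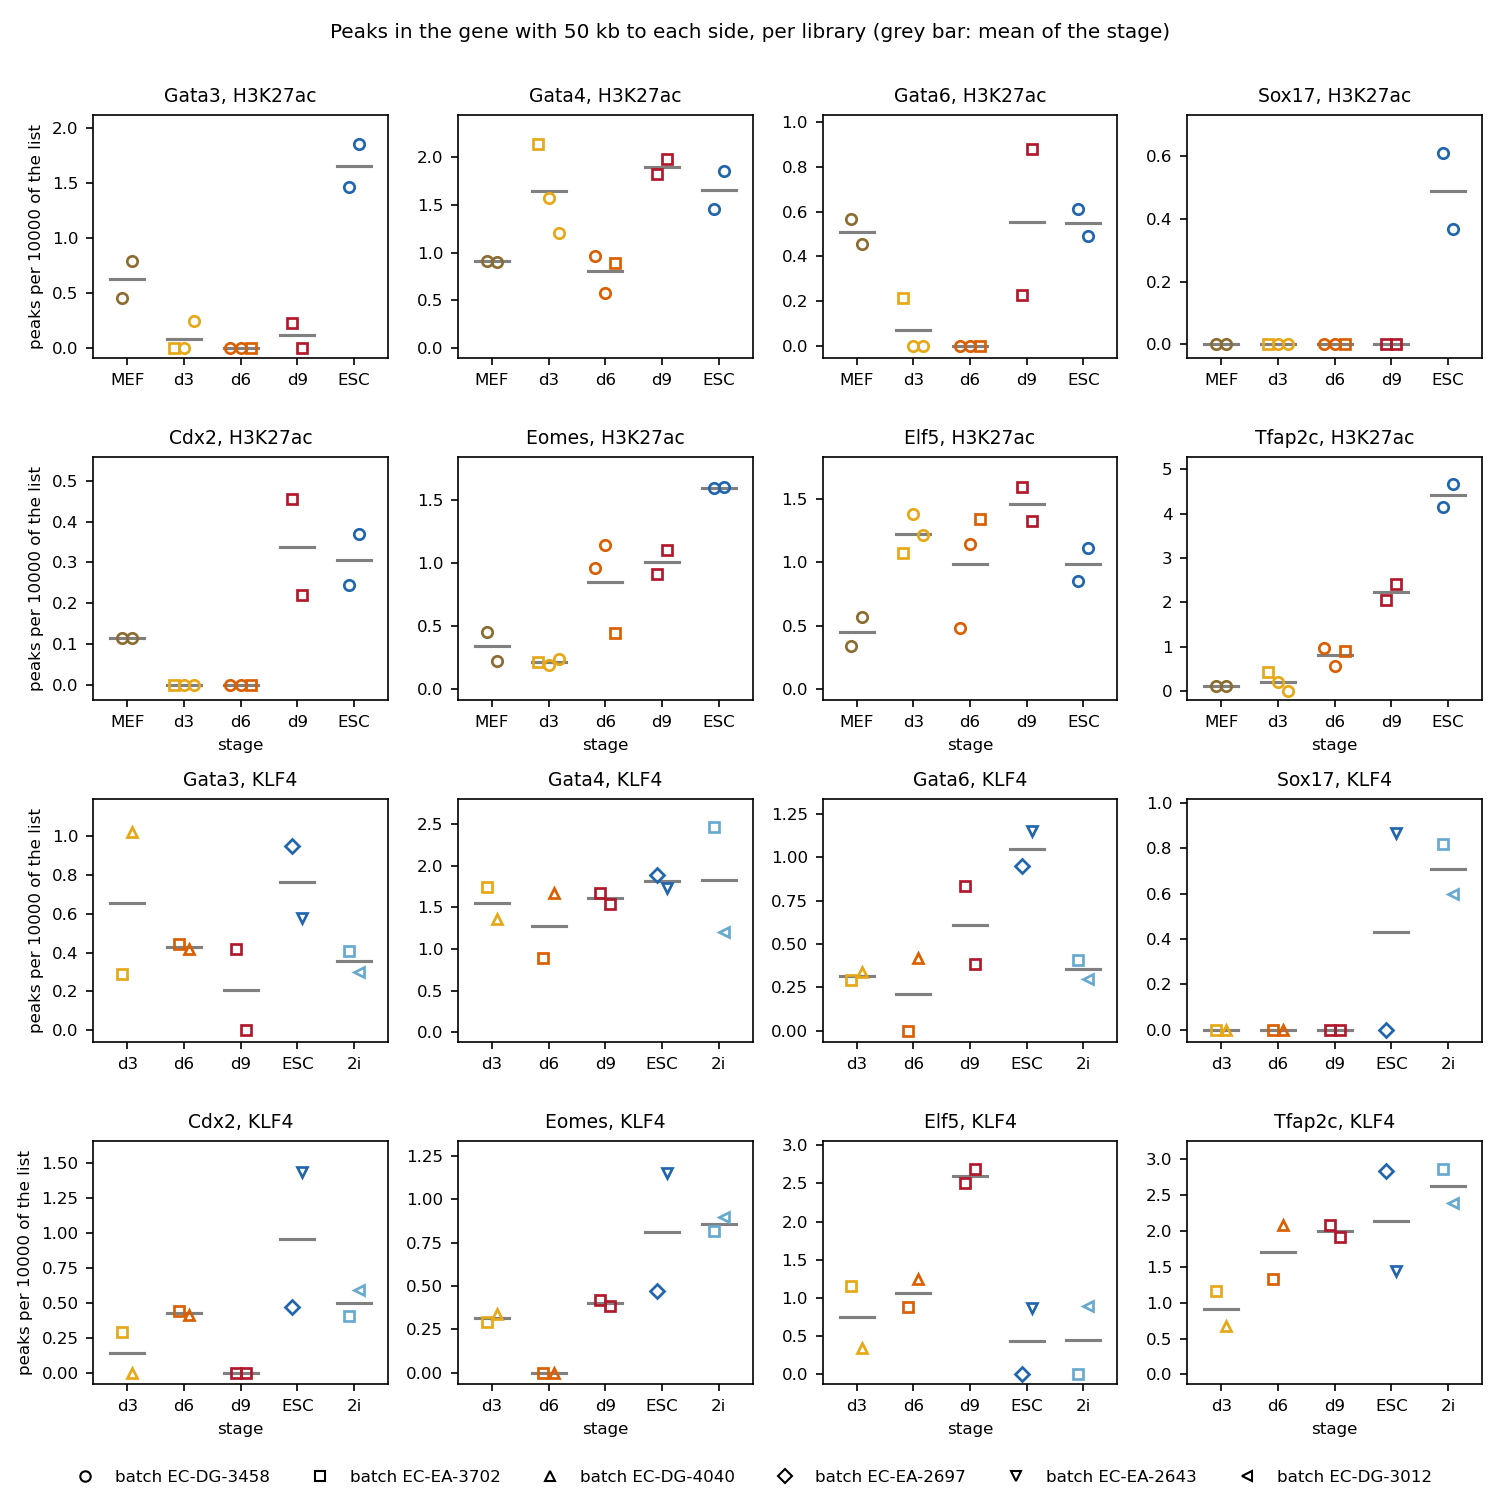
Peaks in each gene window per 10000 peaks of the list (y axis) by stage (x axis), for H3K27ac (upper panels) and KLF4 (lower panels); each point is a library, its shape the batch, and grey bars are means. Elf5 H3K27ac at days 3 to 9 overlaps ESC, Tfap2c climbs to 4.15 and 4.68 in ESC, and Sox17 is at 0 before ESC.

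Across all genes, no comparison gave a gene at an adjusted p under 0.05 in the exact permutation test with Benjamini-Hochberg adjustment, whose smallest adjusted values were 0.101, 0.119 and 0.0516 for H3K27ac against ESC, H3K27ac against MEF and KLF4 against ESC. The smallest possible unadjusted p was 0.0222, 0.0222 and 0.00476. An adjusted p under 0.05 therefore needed a large share of all genes at or near that value, and its absence says little about single genes. At an unadjusted p under 0.05 there were 5514, 5169 and 5233 genes. Sox17 is left out of the calls below, since it entered the tests against ESC through its ESC peaks alone. The shares of all genes were not filtered in this way. For H3K27ac, Gata3, Eomes and Tfap2c were lower at days 3 to 9 than in ESC at an unadjusted p under 0.05 (19.1% of all genes), and 0 members were higher (8.65%). The same genes did not overlap ESC, as 17.9% of all genes did not in this direction. Of the 8 members, 0 lay wholly above ESC, as 15.3% of genes did. Against MEF 0 of the 7 members tested (Sox17 had no peak in either group) lay wholly above, as 27.7% of genes did, and in KLF4 0 of the 8, as 4.28% did. Against MEF, Elf5 was higher at that level (14.8%), and Gata3 was lower, as were 12% of all genes (2313 of 19282), and neither call held under every alternative. For KLF4, Cdx2 and Eomes were lower (17.0%), and 0 members were higher (9.36%). A moderated test across genes (limma on log2 values, added after seeing the data) gave an adjusted p of 0.0229 for Tfap2c in H3K27ac against ESC, 0.0437 for Elf5 against MEF and 0.0544 for Elf5 in KLF4. It kept windows with a mean of at least 1 peak per library, which Gata3 in H3K27ac and Eomes and Cdx2 in KLF4 reached only through the group with more peaks, so no limma value is given for them. In the same limma fit, 9.06% of genes were lower and 7.73% higher than ESC in H3K27ac, 16.3% higher and 7.15% lower than MEF, and 11.1% lower and 7.33% higher than ESC in KLF4. Its log2 differences were -2.00 ± 0.54 (SE) for Tfap2c against ESC and 0.81 ± 0.27 for Elf5 against MEF.

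Other genes of the same lineages were taken from lists by role. Of 18 trophoblast genes, 6 (33.3%, against 41.0%) had a gained H3K27ac region in their window, 8 (44.4%, against 46.4%) a KLF4 region bound at days 3 to 9 and absent in ESC, and 3 (16.7%, against 29.6%) both. Fgfr2, the receptor through which FGF4 acts on trophoblast, had 4 and 3 such regions, Id2 had 2 and 1, and the simple-epithelium keratins Krt8 and Krt18, neighbours whose windows overlap, had 0 and 3 each. Of 17 primitive and visceral endoderm genes, 7 (41.2%, against 41.0%) had a gained H3K27ac region, 8 (47.1%, against 46.4%) a KLF4 region and 5 (29.4%, against 29.6%) both. The basement membrane collagens Col4a1 and Col4a2, also neighbours with overlapping windows, had 9 and 6, and 8 and 7. The cubilin partner Amn had 4 and 2, and the endocytic adaptor Dab2 had 2 and 2. As a measure of other cell types, H3K27ac peaks over the genes of the trophoblast list with 2.5 kb flanks were found at 11 and 13 of 18 genes in MEF (76 and 85 peaks), 7 to 10 at day 3 (27 to 38), 4 or 5 at day 6 (13 to 16), 9 at day 9 (36 in each library), and 13 and 16 in ESC (62 and 65). For the endoderm list they were found at 9 and 10 of 17 genes in MEF (137 and 142 peaks), 7 to 9 at day 3 (78 to 96), 4 or 5 at day 6 (16 to 23), 10 at day 9 (34 and 37), and 13 and 15 in ESC (37 and 43). Whether cells of these lineages had a part in the Elf5 regions was not tested.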

How the data were processed

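ChIP-seq peak lists of 22 libraries were used, with a list for each library; 13 input libraries were not analysed here. The submitters' processing notes name cutadapt 1.8.1, Bowtie2 2.2.5, MACS2 2.1.1, deepTools 2.3.6 and the build mm10 (GRCm38), without roles or settings. The authors' deposited lists give every peak a score and a fold over background (a ratio). They also give −log10 p-values and −log10 q-values, again as deposited. Folds describe a peak, scores rank it within its list, and q-values filter it. No list holds read counts, so no test on counts was possible.

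Intervals overlapped with at least 1 bp in common. Regions were the merged peaks found in at least 2 libraries of a stage, and windows were genes with 50 kb to each side. Window values were peaks per 10000 peaks of the list, since list lengths differed. They were compared by a two-sided exact permutation test over libraries, with Benjamini-Hochberg adjustment over all protein-coding genes with a peak. Counts of regions have no test and stand beside the share of all regions or windows. An added alternative was limma 3.58.1 on log2(value + 0.5), for windows with a mean of at least 1 peak per library. Other alternatives were a q-value limit of 0.01, the same number of top peaks per list (17493 and 21129), an overlap of 50% of the shorter interval, windows of 25 and 100 kb, presence in any library, covered base pairs, undivided peaks, ESC in serum alone, single batches, and leaving out each library in turn. The code was tested on simulated lists.

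Names and coordinates of genes and the promoter sequences came from RefSeq tables of GRCm38.p6; 4 of the 8 members (Gata3, Cdx2, Eomes and Elf5) matched, with 5 promoters. Exons and introns were not used here. For each member, regions within 2.5 kb of the gene and all regions of days 3 to 9 absent in ESC were named; regions named beyond these were chosen after their values were seen. The members and gene lists were chosen with earlier results of these data known.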

Additional observations from a re-analysis of the deposited data

How the results depend on the processing

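The 3 gained H3K27ac regions became 5 when MEF was not considered, 6 at a q-value of at most 0.01, 5 with 100 kb windows, 14 when any library sufficed, and 3 to 9 with 1 library left out (9 without 1 day 9 library, 5 without 1 ESC library; a stage of 1 library then needs 1 peak by construction). The 5 KLF4 regions became 15 when any library sufficed and 5 to 10 with 1 library left out (10 and 9 without either day 3 library). Regions of ESC alone ranged from 4 to 71 for H3K27ac and from 1 to 31 for KLF4. With 1 library left out 0 genes passed an adjusted p of 0.05, which says nothing about stability: the smallest possible p was then 0.111 without an ESC or MEF library of H3K27ac, 0.0278 without another H3K27ac library, and 0.00794 or 0.0119 for KLF4. Without division by list length 9672 genes passed in H3K27ac against ESC, and KLF4 against ESC gave 2254 with covered base pairs and 2227 with 100 kb; limma gave 2882, 4013 and 2902. The H3K27ac difference of Elf5 from ESC turned to -0.183 at a q-value of at most 0.01 and to -3.5 undivided. The replicate block (numbers 1 and 2 in batch EC-DG-3458) left 0 genes, as its smallest possible p was 0.111. Deviations of equal numbers correlated between -0.0131 and 0.0561, which cannot show whether libraries of equal number came from the same culture or animal. Lists without depth limit all of this: absence of a peak is not absence of signal.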

Other observations

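A pair of regions missed the definitions of days 3 to 9 because of peaks in single libraries, and were picked out after their values were seen. In Golga4, within the Eomes window, H3K27ac at chr9:118511369-118513875 had folds of 8.60 and 6.81 at day 9, and weaker peaks of fold 3.08 in 1 of 2 MEF and 2.79 in 1 of 3 day 6 libraries, with none in ESC. In Cat, within the Elf5 window, H3K27ac at chr2:103458129-103459806 had folds of 5.36 and 4.51 at day 9 and 3.51 in 1 of 2 ESC libraries, with none in MEF, day 3 or day 6. Both were over neighbouring genes and not over the lineage factors.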
